A study of Danio rerio with 4 samples.

Results

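The genes described here encode the 2 beta-actins and 7 proteins that bind actin. They are 9 of the 32434 gene rows in the count table, of which 12123 had a count. The rows of tpm4a (ENSDARG00000023963), tmsb4x (ENSDARG00000077777), TAGLN (ENSDARG00000033466), CFL1 (ENSDARG00000021124) and CNN2 (ENSDARG00000035858) were taken by identifier. Those of actb1 (ENSDARG00000037746), actb2 (ENSDARG00000037870), MSN (ENSDARG00000058128) and pfn1 (ENSDARG00000088091) were taken by symbol. Symbols are those of a table of Ensembl identifiers, which writes some zebrafish genes in capitals. The genes were chosen with the ventral and dorsal values of these same libraries known. Their differences between the 2 sides are therefore a description, and nothing is read from their place in the test over all genes. The identifier table alone gives the names TAGLN and MSN, and whether those rows are tagln or its relative tagln2, and msna, was not checked.

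The study compared endothelial cells of the ventral part with those of the dorsal part of the posterior cardinal vein (PCV), which drains the trunk of the embryo. The embryos were zebrafish of the line Tg(fli1:gal4;uasKaede) at 24 hours post fertilization in both groups. In this line the promoter of the endothelial gene fli1 drives Kaede, which changes its fluorescence from green to red when lit. Red cells were sorted after 1 side of the vein had been lit, from 6 embryos per group. Each side has 2 libraries, and the labels do not say whether they came from separate pools of embryos.

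Actin exists as single molecules, the monomers, and as filaments built from them. Thymosin beta 4 (tmsb4x) holds monomers back, profilin (pfn1) delivers them to growing filament ends, and cofilin (CFL1) cuts and takes apart old filaments. Tropomyosin (tpm4a) lies along filaments, transgelin (TAGLN) and calponin (CNN2) bind their sides, and moesin (MSN) ties them to the cell membrane. In endothelial cells this system sets cell shape, migration and the opening of the vessel lumen.

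The count over all genes was 108405 and 79527 for ventral libraries 1 and 2, against 115876 and 51376 for dorsal libraries 1 and 2. The libraries were made by CEL-Seq, which counts the 3' end of each transcript, so levels are given per 1000000 gene counts (CPM) and not per length. No gene or spike-in had more than 1024 counts, the number of different identifiers of 5 bases, so that high counts are compressed. The 9 genes lie well below this ceiling. A standard correction for repeated identifiers raised the highest of them by 27.2%, which was actb2 in ventral library 1. Transcripts of 18 pan-endothelial genes summed to 1338 and 1433 CPM in the ventral libraries, against 466 and 545 CPM in the dorsal libraries. Red cell transcripts other than those near the ceiling summed to 9003 and 8815 CPM in the ventral libraries, against 12833 and 8759 CPM in the dorsal libraries. Red cell RNA was thus present on both sides, and the pan-endothelial sum was lower in the dorsal libraries. Of the 18 pan-endothelial genes, 8 had both ventral libraries above both dorsal ones, and 2 had no count in any library. Of the 1399 genes expressed highly enough to be tested, 19.4% lay in that order and 19.5% in the opposite one. Some of the 18 were too low to be tested, so the 8 of 18 and these shares cover unlike sets. The junction gene cdh5 gave 2 and 1 counts in the ventral libraries, against 4 and 0 counts in the dorsal libraries. In such bulk libraries, fewer cells of a type and less RNA per cell cannot be told apart. What part the endothelial sum has in the values below was not tested.

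For each of the 9 genes the lower ventral library lay above the higher dorsal library, and the size of the difference varied among them. The filament-side genes tpm4a, CNN2 and TAGLN were about 4 to 6 times higher in the ventral libraries. The monomer-binding genes tmsb4x and pfn1 were about 2.5 times higher, and CFL1, MSN and both beta-actins 1.6 to 1.8 times higher. The intervals of 2 SE around the folds met for 22 of the 36 pairs of genes and lay apart for 14. The interval of pfn1 met that of every other gene. Differences between the folds were not tested. Summed over the 9 genes, transcripts came to 14974 ± 1366 CPM in ventral libraries and 7825 ± 192 CPM in dorsal libraries (SD, n = 2 each), a ratio of 1.91. They made up 1.59% and 1.40% of gene counts in ventral libraries 1 and 2, against 0.769% and 0.796% in dorsal libraries 1 and 2. Of all 1399 genes expressed highly enough for the test, 19.4% had both ventral libraries above both dorsal ones. Because the genes were chosen on this contrast, nothing is read from the 9 of 9.

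**Figure D1:**
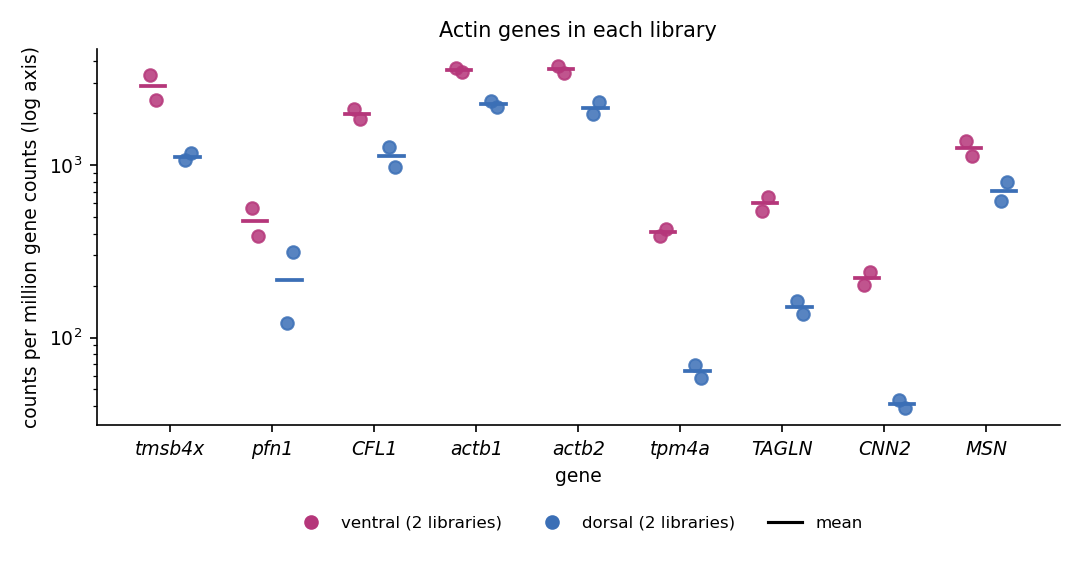
Level of each of the 9 actin genes in each library, as counts per 1000000 gene counts on a log axis, with 1 point per library and a bar at the mean of 2. Ventral points lie above dorsal points for every gene, with the widest gap for tpm4a and CNN2 and the narrowest relative to its spread for pfn1.

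The filament-side genes had few counts in the dorsal libraries. tpm4a gave 42 and 34 counts in ventral libraries 1 and 2, against 8 and 3 counts in dorsal libraries 1 and 2. On the CPM scale these are 387 and 428 in the ventral libraries, against 69.0 and 58.4 in the dorsal libraries. The groups lie far apart and the 2 libraries of each side lie close together. The fold was 6.18, with an interval of 3.65 to 10.5 (2 SE), from the fit across all genes.

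CNN2, a calponin, followed the same order. It gave 22 and 19 counts in the ventral libraries, against 5 and 2 counts in the dorsal libraries, or 203 and 239 CPM against 43.1 and 38.9 CPM. No value of one side comes near those of the other. The fold was 5.19, with an interval of 2.53 to 10.7 (2 SE). On summed counts alone the ratio was 5.21, with a 95% exact interval for counting error of 2.32 to 13.8. With 7 dorsal counts in all, the size of this ratio is loosely known.

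TAGLN gave 59 and 52 counts in the ventral libraries, against 19 and 7 counts in the dorsal libraries. As CPM this is 544 and 654 in the ventral libraries, against 164 and 136 in the dorsal libraries, again without overlap. The fold was 3.89, with an interval of 2.60 to 5.83 (2 SE). A second row that carries the symbol TAGLN (ENSDARG00000045408) had 0 counts in all libraries. The gene tagln is known as a marker of smooth muscle, whose defining genes acta2 and MYH11 had 0 counts in every library. The 11 smooth muscle and mural genes matched summed to 8 and 4 counts in the ventral libraries, against 6 and 3 counts in the dorsal libraries, and 8 of them had no count anywhere.

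tpm4a and CNN2 reached the expression filter, 106 CPM in 2 libraries, through the ventral libraries alone. A gene that enters the fit in that way must be higher in the ventral libraries. The other 7 genes passed this filter in all 4 libraries.

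Of the monomer-binding genes, tmsb4x was the more abundant by far. It gave 362 and 190 counts in the ventral libraries, against 124 and 60 counts in the dorsal libraries. Its level was 3339 and 2389 CPM in the ventral libraries, against 1070 and 1168 CPM in the dorsal libraries. The ventral libraries differ from each other more than the dorsal ones, yet the lower of them is still above both dorsal values. The fold was 2.57, with an interval of 1.95 to 3.40 (2 SE).

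pfn1 was uneven within the dorsal side. It gave 61 and 31 counts in the ventral libraries, against 14 and 16 counts in the dorsal libraries, although dorsal library 2 held less than 1 count for every 2 in dorsal library 1 over all genes. Its level was 563 and 390 CPM in the ventral libraries, against 121 and 311 CPM in the dorsal libraries. The gap between the lower ventral and the higher dorsal library is small. The log2 fold was 1.29 ± 0.45 (SE), and it stood at 0.50 without dorsal library 1 and at 2.12 without dorsal library 2.

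CFL1, which encodes cofilin, gave 229 and 148 counts in the ventral libraries, against 148 and 50 counts in the dorsal libraries. This is 2112 and 1861 CPM in the ventral libraries, against 1277 and 973 CPM in the dorsal libraries. The sides do not overlap, and the fold was 1.74 with an interval of 1.40 to 2.16 (2 SE). MSN, which encodes moesin, gave 150 and 90 counts in the ventral libraries, against 72 and 41 counts in the dorsal libraries. Its level was 1384 and 1132 CPM in the ventral libraries, against 621 and 798 CPM in the dorsal libraries, with a fold of 1.79 and an interval of 1.3 to 2.46 (2 SE). Its log2 fold of 0.84 moved to 0.53 without dorsal library 1.

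The beta-actins were the most abundant of the 9 genes on both sides and had the smallest folds in the fit across all genes. With the correction for repeated identifiers the log2 folds were 0.782 for actb1, 0.878 for actb2, 0.872 for MSN and 0.87 for CFL1. With that correction actb2 no longer lay below MSN and CFL1. actb1 gave 398 and 277 counts in the ventral libraries, against 272 and 111 counts in the dorsal libraries, or 3671 and 3483 CPM against 2347 and 2161 CPM. actb2 gave 405 and 273 counts in the ventral libraries, against 229 and 119 counts in the dorsal libraries, or 3736 and 3433 CPM against 1976 and 2316 CPM. The libraries of each side lay close for actb1, and less so for actb2. The fold was 1.57 for actb1, with an interval of 1.27 to 1.95, and 1.66 for actb2, with an interval of 1.28 to 2.14 (2 SE). The log2 fold of actb2, 0.73, stood at 0.50 without dorsal library 1 and at 0.99 without dorsal library 2.

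The 2 beta-actin genes contributed about equal counts in each library. actb1 made up 49.6% and 50.4% of their joint counts in ventral libraries 1 and 2, against 54.3% and 48.3% in dorsal libraries 1 and 2. The exact 95% intervals, which cover counting error only, ran from 46.1% to 53.1% and from 46.1% to 54.6% in the ventral libraries, against from 49.8% to 58.7% and from 41.6% to 54.9% in the dorsal libraries. The 4 intervals overlap, and a shift between the 2 genes was not detectable at this depth. The 2 genes are near-identical in their coding part, and the sources used here do not say how shared reads were counted, so the split between them is uncertain.

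The order of the levels was alike on both sides for most genes. In the ventral libraries actb1 and actb2 overlapped at the top, followed by tmsb4x, CFL1 and MSN in that order without overlap. TAGLN and pfn1 overlapped, as did pfn1 and tpm4a, and CNN2 was lowest. In the dorsal libraries actb1 and actb2 overlapped again, tmsb4x and CFL1 overlapped, and MSN stood below them. pfn1 and TAGLN overlapped, and tpm4a and CNN2 followed apart from each other. On the ventral side tmsb4x thus stood above CFL1, at 1.58 and 1.28 counts per CFL1 count, whereas the dorsal libraries had 0.838 and 1.2.

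Relative to beta-actin in the same library, the genes ran from sides far apart to sides that overlapped. This ratio uses no library scaling. tpm4a had 5.23 and 6.18 counts per 100 beta-actin counts in the ventral libraries, against 1.6 and 1.3 in the dorsal libraries. CNN2 had 2.74 and 3.45 in the ventral libraries, against 0.998 and 0.870 in the dorsal libraries. TAGLN had 7.35 and 9.45 in the ventral libraries, against 3.79 and 3.04 in the dorsal libraries. For these 3 genes the ventral ratio was 3.94, 3.30 and 2.45 times the dorsal one, as a ratio of geometric means.

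tmsb4x also kept its sides apart, with 45.1 and 34.5 counts per 100 beta-actin counts in the ventral libraries, against 24.8 and 26.1 in the dorsal libraries. CFL1, MSN and pfn1 did not. CFL1 had 28.5 and 26.9 in the ventral libraries, against 29.5 and 21.7 in the dorsal libraries. MSN had 18.7 and 16.4 in the ventral libraries, against 14.4 and 17.8 in the dorsal libraries. pfn1 had 7.60 and 5.64 in the ventral libraries, against 2.79 and 6.96 in the dorsal libraries. For these 3 genes the sides overlapped once beta-actin served as the scale. As a ratio of geometric means, the ventral ratio was 1.55 times the dorsal one for tmsb4x and 1.48 times for pfn1. These genes thus differed in spread more than in size. For CFL1 and MSN it was 1.09 times. How many of all genes tested keep their sides apart on this scale was not counted.

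**Figure D2:**
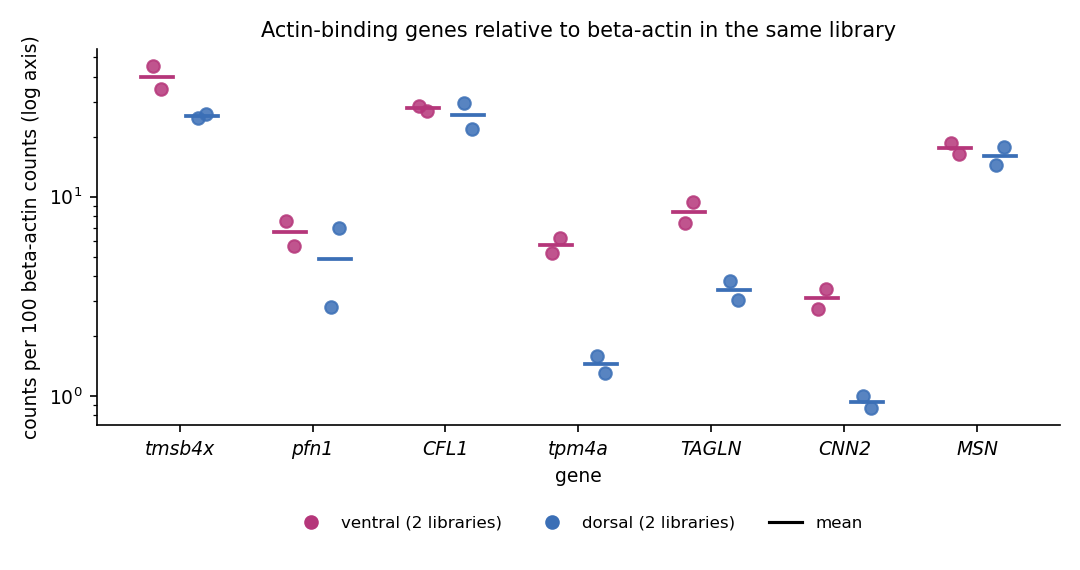
Counts of each actin-binding gene per 100 counts of actb1 and actb2 together in the same library, on a log axis, with 1 point per library and a bar at the mean of 2. tmsb4x, tpm4a, TAGLN and CNN2 keep the ventral points above the dorsal points, and the points of pfn1, CFL1 and MSN overlap between the sides.

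The share of the 9-gene total held by beta-actin was accordingly lower on the ventral side. It was 46.5% and 49.4% in the ventral libraries, against 56.2% in each of the dorsal libraries. tmsb4x held 20.9% and 17.1% in the ventral libraries, against 13.9% and 14.7% in the dorsal libraries. Among the filament-side genes, TAGLN had 1.40 and 1.53 counts per tpm4a count in the ventral libraries, against 2.38 and 2.33 in the dorsal libraries. The counts of tpm4a per CNN2 count were 1.91 and 1.79 in the ventral libraries, against 1.6 and 1.5 in the dorsal libraries, which rest on 2 to 8 dorsal counts per gene.

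Set against all genes tested, the folds of the 9 genes lay in the upper part, and the genes were chosen with this contrast known. Their median log2 fold was 1.29, and that of all 1399 genes was -0.033. In edgeR's quasi-likelihood test over all genes, 3 of the 9 genes, tpm4a, tmsb4x and TAGLN, passed the threshold of an adjusted p of 0.05. The same test called 0.429% of all genes higher in ventral libraries and 0 lower. Because of how the genes were chosen, nothing is read from the 3, and tpm4a entered the fit through the ventral libraries alone. At an unadjusted p under 0.05 that test had 105 genes higher and 65 lower, and DESeq2 and limma-voom called 0 genes in either direction. At that unadjusted p DESeq2 had 51 genes higher and 7 lower, and limma-voom 102 higher and 76 lower. With scaling to the pan-endothelial sum, 1104 of the 1399 genes tested were called lower in the ventral libraries and 5 higher. Of the 9 genes, only actb1 and actb2 were called there, both lower. The number of the 9 genes called, in either direction, moved with the settings. It was 0 with DESeq2, limma-voom, spike-in scaling and without dorsal library 1, and 2 with scaling to the pan-endothelial sum. It was 5 with no filter, which called 43 of 12123 genes higher and 4 lower. It was 7 with the correction for repeated identifiers, which called 21 of 1399 genes higher and 1 lower. Without dorsal library 2 it was again 3, but TAGLN was no longer among them.

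Folds spread less among abundant genes, and the 5 actin genes at or above the level of MSN stood above the other genes there. Of the other genes tested, 153 had a mean level of at least 984 CPM, that of MSN, and no count near the ceiling. Their log2 folds ran from -0.86 to 0.45 with a median of -0.022, and 0 of the 153 reached the 0.65 of actb1. The highest of them, ENSDARG00000070212, had 248 and 91 counts in the ventral libraries, against 84 and 97 counts in the dorsal libraries, so that its sides overlapped. The mitochondrial gene MT-ND3 and the ribosomal protein gene RPS28 followed at 0.36 ± 0.22 and 0.27 ± 0.15 (SE). This level was set after the values had been seen, and the comparison is a description. Below it some genes had log2 folds larger than that of MSN, such as ENSDARG00000086686 at 1.09. That gene had 141 and 62 counts in the ventral libraries, against 63 and 22 counts in the dorsal libraries.

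**Figure D3:**
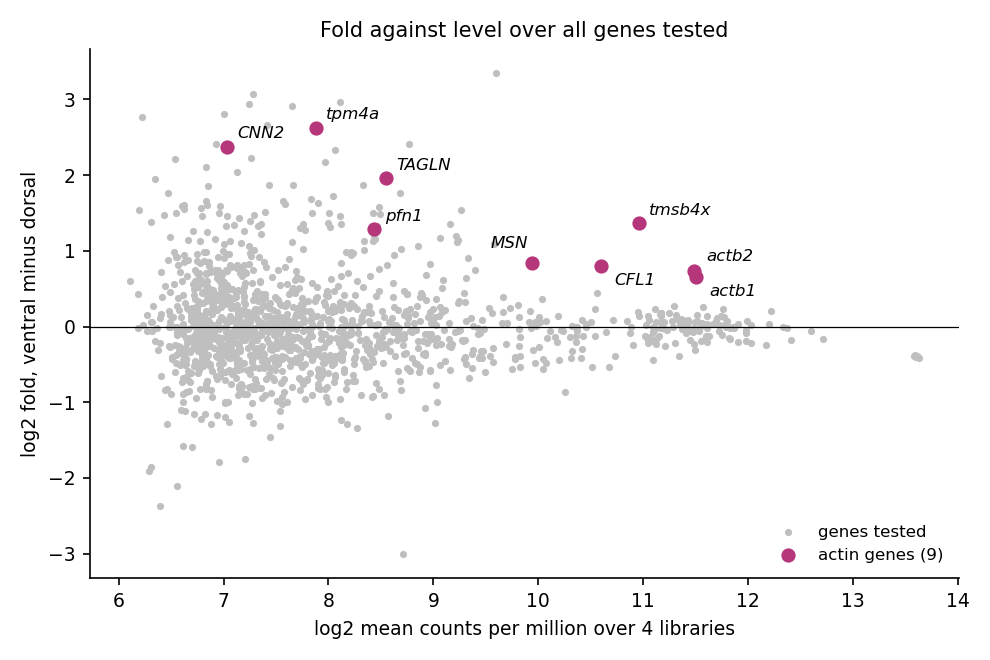
Log2 fold of ventral against dorsal libraries for each of the 1399 genes tested, against the log2 of the mean counts per 1000000 gene counts, with the 9 actin genes named. tpm4a, CNN2 and TAGLN lie among the highest folds at low to middle levels. MSN, CFL1, tmsb4x, actb1 and actb2 lie above the other genes at or above the level of MSN. The 9 genes were chosen with this contrast known, so their place is a description.

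The size of the difference depended on what the libraries were scaled to. With the ERCC spike-ins, synthetic RNAs added to each sample, all 9 genes stood further above 0, with a median log2 fold of 1.75. The median of all genes moved to 0.30. The SEs grew as well, to between 0.99 for actb1 and 1.32 for TAGLN. Per 1000 counts of spike-ins below the ceiling, actb1 had 82.3 and 73.2 counts in the ventral libraries, against 59.6 and 18.5 counts in the dorsal libraries. Dorsal library 2 was lowest for all 9 genes on that scale. Scaled to the pan-endothelial sum, the median of all genes moved to -1.51, and the 9 genes split. tpm4a, CNN2 and TAGLN stayed above 0, at 1.14 ± 0.56, 0.89 ± 0.69 and 0.47 ± 0.47 (SE). tmsb4x and pfn1 lay near 0, at -0.093 and -0.16, and MSN, CFL1, actb2 and actb1 turned to between -0.61 and -0.81. All 9 lay above that median of all genes. A change of scaling shifts all genes nearly alike, so this place could hardly change and nothing is read from it.

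**Figure D4:**
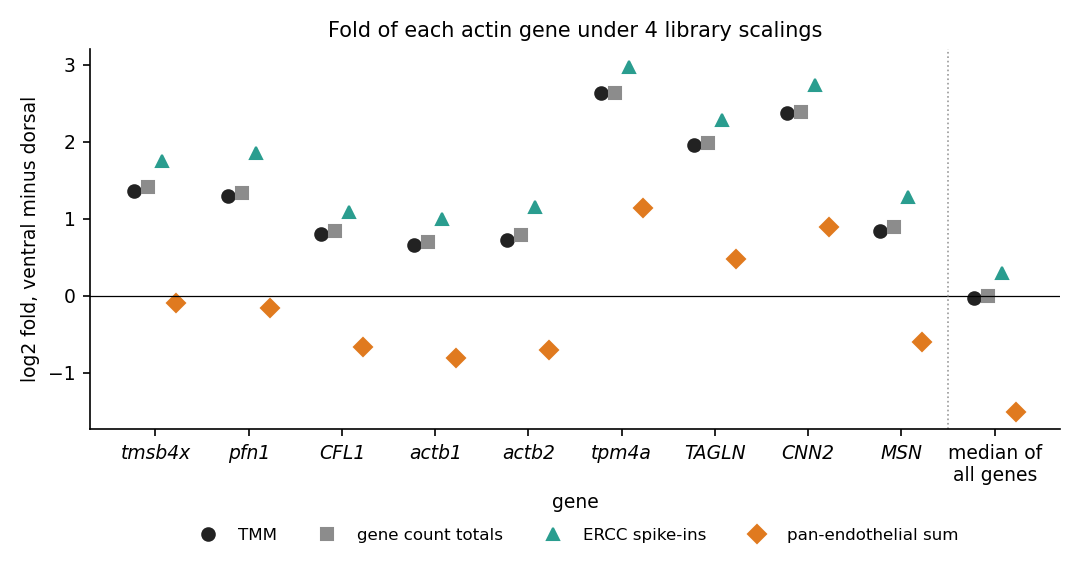
Log2 fold of ventral against dorsal libraries for each of the 9 actin genes under 4 library scalings, with the median of all genes tested at the right. The order of the genes is nearly the same under each, since a change of scaling shifts all genes nearly alike. The pan-endothelial scaling shifts all genes down, so that 3 of the 9 stay above 0.

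The plain ratios use the same pan-endothelial sums, so they restate this split and do not test it again. Per pan-endothelial count, tpm4a had 0.290 and 0.298 counts in the ventral libraries, against 0.148 and 0.107 counts in the dorsal libraries. actb1 had 2.75 and 2.43 in the ventral libraries, against 5.04 and 3.96 in the dorsal libraries. tmsb4x had 2.50 and 1.67 in the ventral libraries, against 2.30 and 2.14 in the dorsal libraries, which overlap. The pan-endothelial sums rest on 145 and 114 counts in the ventral libraries, against 54 and 28 counts in the dorsal libraries, so the ratios are coarse.

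None of the other actin cytoskeleton genes in 11 lists that could be tested passed the threshold. The lists are not complete, so genes of the actin system outside them can be among those called. The 11 lists of other actins, tropomyosins, monomer-binding, severing, calponin-like, membrane-linking, crosslinking, capping, nucleating, myosin and focal adhesion genes matched 134 genes. Of these, 97 had a count and 18 were expressed highly enough to be tested. None of the 18 was called in either direction by edgeR's test, which called 0.429% of all genes higher. DESeq2 and limma-voom called 0 of all genes tested, so they add nothing on the 18. At an unadjusted p under 0.05 edgeR had 2 of them higher and 0 lower, where it had 105 higher and 65 lower of all 1399 genes. Of the 18, 9 had a log2 fold above 0 and 9 below, with a median of 0.043. Both ventral libraries lay above both dorsal ones for 6 of the 18 (33.3%) and below them for 1, where 19.4% and 19.5% of all genes tested did so. Summed over all 134 genes, the lists held 6190 and 5721 CPM in the ventral libraries, against 5394 and 3776 CPM in the dorsal libraries. The self-test on simulated counts called 96% of genes raised 4-fold and 38% of genes raised 2-fold, so a difference of the size seen in CFL1 or the actins would often be missed.

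Among tropomyosins, tpm3, a relative of tpm4a, came closest. It gave 33 and 26 counts in the ventral libraries, against 16 and 5 counts in the dorsal libraries, and stood at 1.36 ± 0.35 on the log2 scale (SE; edgeR's adjusted p was 0.152). The capping gene of pointed filament ends TMOD4 stood at -0.57 ± 0.51. Of the other profilins, pfn2b gave 45 and 30 counts in the ventral libraries, against 58 and 16 counts in the dorsal libraries. Its log2 fold of -0.072 ± 0.27 (SE) has an interval of -0.61 to 0.47 (2 SE), while that of pfn1 runs from 0.38 to 2.20, and the difference between them was not tested. PFN2, too low for the test and named here after its values were seen, gave 15 and 8 counts in the ventral libraries, against 4 and 4 counts in the dorsal libraries, and its sides did not overlap in CPM.

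Of the nucleation list, which holds the Arp2/3 complex and its activators, 5 genes were tested, with 2 above 0 and 3 below. The whole list summed to 1642 and 1509 CPM in the ventral libraries, against 1191 and 1012 CPM in the dorsal libraries. The subunit genes arpc4l, ARPC3 and ARPC5L stood at 1.38 ± 0.66, 0.60 ± 0.53 and -0.76 ± 0.49 (SE). CORO1C, a coronin that aids filament turnover, stood at 0.95 ± 0.48. Of the 4 genes tested in the myosin list, 2 lay above 0 and 2 below, the kinase gene ROCK1 at -0.49 ± 0.53 among the lower ones. FERMT2 and lims1, whose products sit at integrin adhesions, stood at 1.13 ± 0.50 and 0.85 ± 0.40, and both ventral libraries were above both dorsal ones for each.

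The capping protein gene capza1a had the most counts of the 18 and was uneven within the dorsal side. It gave 28 and 18 counts in the ventral libraries, against 106 and 6 counts in the dorsal libraries, so that the sides overlap in CPM. Dorsal library 1 lay above and dorsal library 2 below both ventral libraries. It stood at -1.18 ± 0.58 on the log2 scale (SE; edgeR's adjusted p was 0.481). The crosslinker gene SPTAN1, a spectrin, stood at -0.28 ± 0.29. The 6 other actin genes matched, which are muscle forms, had 5 and 3 counts in the ventral libraries, against 4 and 7 counts in the dorsal libraries, far below either beta-actin. Skeletal muscle genes gave at most 2 counts in any library over the 10 matched.

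**Figure D5:**
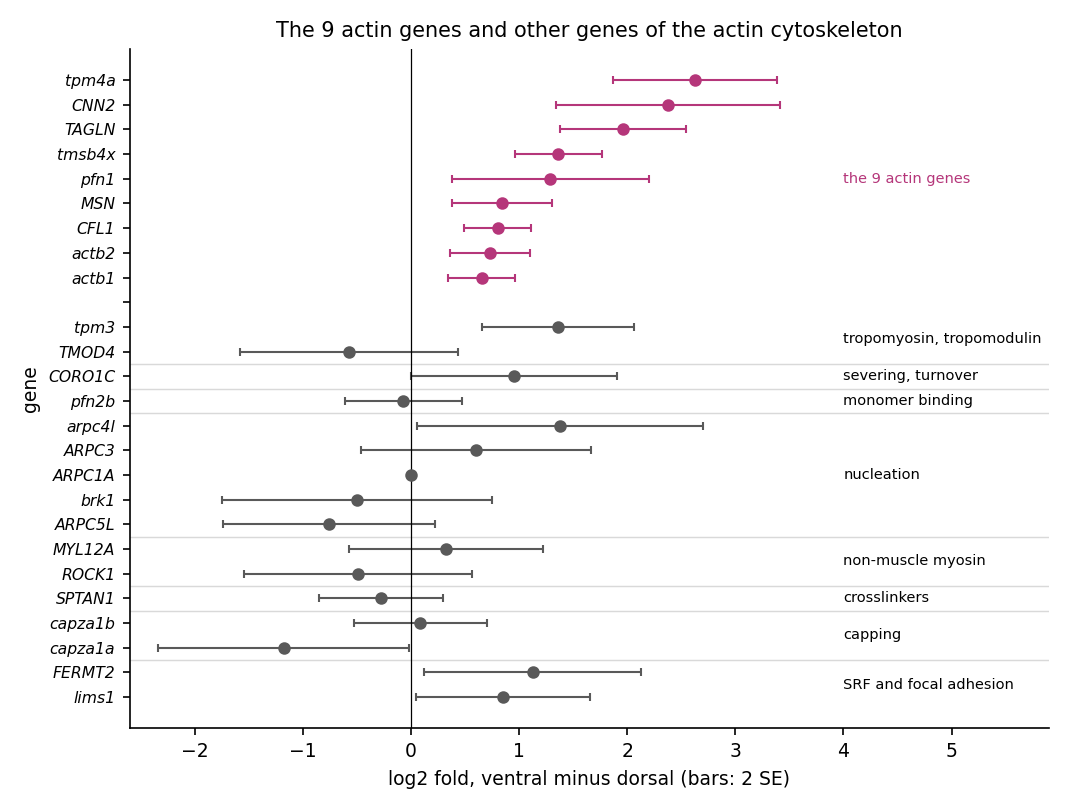
Log2 fold of ventral against dorsal libraries, with bars of 2 SE, for the 9 actin genes and the tested genes of the other actin lists. Genes are grouped by role, 2 of the 18 are not drawn, and ARPC1A, at 0, has no bar. All 9 actin genes lie above 0, and the others lie on both sides of 0.

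Markers of other cell types moved with some libraries. Epidermal genes, 13 matched, summed to 3302 and 1081 CPM in the ventral libraries, against 492 and 681 CPM in the dorsal libraries. Of these, krt4, cyt1l and krt17 gave 58, 65 and 25 counts in ventral library 1 and 0 in each other library. Outside ventral library 1 the sum came from krt8, krt18a.1 and epcam alone. Ventral library 1, the highest in epidermal transcripts, was also the higher ventral library for tmsb4x, pfn1, CFL1, MSN and both beta-actins, whereas tpm4a, TAGLN and CNN2 were higher in ventral library 2. Without ventral library 1 the log2 folds of the 9 genes lay between 0.61 for actb1 and 2.69 for tpm4a. Myeloid genes summed to 221 and 138 CPM in the ventral libraries, against 25.9 and 642 CPM in the dorsal libraries. Thrombocyte genes summed to 378 and 277 CPM in the ventral libraries, against 483 and 409 CPM in the dorsal libraries. Beyond these values, the part of such cells in the actin transcripts was not tested.

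The mean profile of the 9 genes over the 4 libraries was high in both ventral libraries, at 0.77 and 0.65 on the centred log2 CPM scale, and low in both dorsal ones, at -0.76 and -0.66. By distance to it, the 8 nearest other genes were capns1b, CANX, ptprsa, ANKRD12, JUNB, etsrp, spns2 and FOSL2. Their distances ran from 0.129 to 0.36, against a median of 1.6 over the other genes tested. capns1b, a small calpain subunit gene, gave 19 and 12 counts in the ventral libraries, against 7 and 3 counts in the dorsal libraries. etsrp, an early regulator of endothelial fate, gave 17 and 15 counts in the ventral libraries, against 6 and 3 counts in the dorsal libraries. Within the 9 genes, tmsb4x lay nearest to the mean profile at 0.271 and tpm4a farthest at 1.28. With 4 libraries such nearness is a description only.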

How the data were processed

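RNA was measured in 4 libraries. TRIzol extraction with ERCC spike-ins and CEL-Seq amplification, with a unique molecular identifier in each primer, are given per the labels' protocols. The submitters' processing notes list CASAVA 1.8, Bowtie2 2.1.0, HTSeq 0.5.4p3 and build Zv9 without their roles. The authors deposited whole-number counts for each Ensembl gene. Whether these are reads or identifiers, and strand use, are not given in the sources used here. The ceiling at 1024 was read as identifier counts, an inference from the values. The 5 rows naming no gene held 96.4% to 97.4% of the column totals and were left out.

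The members, lists and settings were chosen with earlier results of these data known. All genes were fitted with edgeR 4.0.16 in R 4.3.3 (quasi-likelihood F test, TMM factors, edgeR's expression filter, 1399 genes kept), with 2-sided p adjusted by Benjamini-Hochberg over all genes and 2 residual degrees of freedom. SE is the log2 fold divided by the square root of F. Since libraries of a side may not be separate pools, p-values cover only the library-to-library spread, possibly technical. Replicates differed beyond sampling noise, with a chi-square over genes of at least 10 counts of 1.94 (ventral pair) and 3.06 (dorsal pair) for each degree of freedom. Other actin genes were named if they passed, if among the 12 with the lowest unadjusted p, or if among the 3 with the most counts. The 14 alternatives included DESeq2 1.42.0, limma-voom 3.58.1, other scalings and filters, an identifier correction and leaving out each library. The edgeR step was tested on simulated counts for 1399 genes. No sequences or coordinates are given, since no sequence of these genes was at hand. The result of 1 gene that this rule names is not reported here.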

Additional observations from a re-analysis of the deposited data

How the results depend on the processing

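All 9 genes had a log2 fold above 0 under 13 of the 14 alternatives, and tpm4a, CNN2 and TAGLN under all 14. The exception, the pan-endothelial sum, turned tmsb4x to -0.093, pfn1 to -0.16, MSN to -0.61, CFL1 to -0.67, actb2 to -0.71 and actb1 to -0.81. It lowers all genes alike, and under it 1104 genes were called lower, 11 of them other actin pathway genes from the lists. Leaving out 1 library at a time moved tpm4a between 2.60 and 2.69, CNN2 between 2.30 and 2.49, TAGLN between 1.86 and 2.09, tmsb4x between 1.08 and 1.60, and pfn1 between 0.50 and 2.12.

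Over all genes, 6 were called higher and 0 lower. The count called higher was 0 with DESeq2, limma-voom and spike-in scaling, 15 with upper-quartile factors, 14 with gene count totals, 43 with no filter, 13 with at least 10 counts in 2 libraries and 21 with the identifier correction. The count called lower was 4 with no filter and 1 with the identifier correction. Leaving out 1 library gave 0 to 46 genes higher and 1 to 5 lower, with 12 higher without ventral library 1 and 46 without ventral library 2. Without dorsal library 1 it gave 0 higher, and without dorsal library 2 it gave 7. Where an arm was left with 1 library, that library was assumed to vary like the others.

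Of the other actin pathway genes, leaving out 1 library gave 0 higher and 0 to 1 lower. That gene was capza1a, at -1.29 without ventral library 1 and -1.77 without dorsal library 2. The log2 summed CPM of the 9 genes, 0.93 higher in ventral libraries, stood at 1.07 with the identifier correction, which raises high counts most, and at 0.84 to 1.03 with 1 library left out. The log2 ratio of tmsb4x to actb1, 0.67 higher in ventral libraries, ran from 0.47 to 0.87. That of actb1 to actb2, -0.076, ran from -0.25 to 0.098. Causes of the other changes were not tested. No paired analysis was run, because the labels give the 2 sides no shared replicate numbers. The library numbers in the titles all differ, and each ventral number is next to a dorsal number. Whether a ventral and a dorsal library were prepared together is not given. Dorsal library 2 had the fewest gene counts, 51376.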
